A study of Rattus norvegicus with 46 samples.

Results

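Chemokines, cytokines and leukocyte adhesion molecules were followed across rat models of cardiac hypertrophy. The 9 member genes were Ccl2, Ccl3, Ccl5, Cxcl2, Cx3cl1, Il1b, Il6, Icam1 and Vcam1, out of 4736 gene symbols on the array. They were chosen by symbol, and every probe set annotated to exactly 1 of these symbols was kept, which gave 17 of 8740 probe sets. Ccl3, Ccl5 and Cxcl2 had 1 probe set each, Ccl2, Il6, Icam1 and Vcam1 had 2, and Cx3cl1 and Il1b had 3. Probe sets of the same gene are called the first, the second and the third in order of their mean log2 value over the 46 arrays. In the maker's naming, probe sets with the suffix s or g, which include both of Ccl2 and the third of Cx3cl1, may match more than 1 transcript.

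RNA of left ventricles from male Wistar rats was measured on 46 rat oligonucleotide arrays, each holding an RNA pool of several animals. Aortic banding, a pressure overload by a clip on the ascending aorta, was sampled at 6, 12, 16 and 30 weeks (2, 2, 2 and 4 arrays). Myocardial infarction, by ligation of the left anterior descending artery, kept hearts with large transmural infarcts, whose scar was removed before extraction, and was sampled at 3 and 9 weeks (4 arrays each). The aorto-caval shunt, a volume overload, was sampled at 3 and 8 weeks (2 arrays each). Each of these 8 groups had its own 2 arrays of sham-operated rats, which had the operation without the clip, the ligation or the puncture. Angiotensin II, a pressor peptide given by minipump for 2 weeks, and Ditpa, the thyroxin analogue 3,5-diiodothyropropionic acid given subcutaneously for 2 weeks (by infusion in the labels, by daily injection in the study's methods), had 2 arrays each and shared the 2 arrays of saline-infused vehicle. Neonatal hearts gave 2 arrays, compared with adult controls. In all, 26 arrays were from treated adults, 18 from adult controls and 2 from neonates. The rats of a pool cannot be told apart, so p-values measure the spread between pools.

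Chemokines are small secreted proteins that draw leukocytes along a gradient through receptors on those cells. Il1b and Il6 are secreted cytokines that set off and carry inflammatory signals, and Icam1 and Vcam1 on the vessel wall bind leukocyte integrins so that the cells stop and cross. Transcription of many of these genes is raised through NF-kappaB, a factor that inflammatory signals release into the nucleus, and in the heart they can come from endothelium, fibroblasts, muscle cells and resident or entering leukocytes. In these ventricle extracts, a change in the number of cells of a type and a change in RNA per cell cannot be told apart.

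Of the 9 genes, 6 had an entry in the RefSeq promoter table of the build GRCr8, each spanning 250 bases before to 50 after the start of the gene: Cxcl2, Cx3cl1, Il1b, Il6, Icam1 and Vcam1. Searched on both strands, the NF-kappaB consensus was found in 3 of the 6 (Cxcl2, Il6 and Vcam1) and in 4.18% of all 33469 promoters of the table. The 3 are shown because 2 of these genes (Il6 and Vcam1) stood apart on single arrays below, while the other (Cxcl2) did not. The letters TATAAA were found in 4 of the 6 and in 14.2% of all promoters, and GAAANNGAA, a core of the interferon-stimulated response element, in 1 of the 6 (Vcam1) and in 9.71%. TTCNNNGAA, a STAT-type match, was in 1 of the 6 (Icam1) and in 8.87%, and TGANTCA, an AP-1 match, in none of the 6 and in 7.33%. Capitals below mark the letters of any of these matches, which overlap in the Vcam1 TATA box and in the NF-kappaB letters of Cxcl2 and Vcam1, and lower case the remaining bases, written 5′ to 3′ along the gene's strand. Il6 is on the minus strand of chr4:5894526-5894825, Vcam1 on the minus strand of chr2:206742734-206743033 and Cxcl2 on the minus strand of chr14:17467206-17467505. The match began 68 bases before the start in Il6, 93 bases before it in Vcam1 and 74 bases before it in Cxcl2.
Il6: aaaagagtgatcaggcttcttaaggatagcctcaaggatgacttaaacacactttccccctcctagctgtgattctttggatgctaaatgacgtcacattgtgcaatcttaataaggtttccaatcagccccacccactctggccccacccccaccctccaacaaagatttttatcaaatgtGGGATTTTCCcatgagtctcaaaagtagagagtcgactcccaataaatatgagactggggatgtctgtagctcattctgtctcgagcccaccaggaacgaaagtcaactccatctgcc
Vcam1: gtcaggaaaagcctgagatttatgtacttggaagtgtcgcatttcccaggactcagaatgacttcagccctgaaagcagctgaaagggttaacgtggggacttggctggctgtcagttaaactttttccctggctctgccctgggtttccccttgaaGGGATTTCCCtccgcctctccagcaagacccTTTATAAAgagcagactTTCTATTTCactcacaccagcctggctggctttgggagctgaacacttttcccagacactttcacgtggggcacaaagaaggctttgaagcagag
Cxcl2: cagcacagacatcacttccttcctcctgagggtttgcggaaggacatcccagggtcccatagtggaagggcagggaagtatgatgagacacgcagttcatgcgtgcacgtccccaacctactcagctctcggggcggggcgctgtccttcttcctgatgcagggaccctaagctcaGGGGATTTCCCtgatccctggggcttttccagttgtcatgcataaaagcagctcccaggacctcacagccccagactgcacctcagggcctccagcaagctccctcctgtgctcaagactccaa

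Values are model-based probe set intensities, and differences were taken on the log2 scale after setting values under 16 to 16. Each treated group was compared with its own controls by limma with Benjamini-Hochberg adjustment over all 8740 probe sets, with an adjusted p under 0.05 called higher or lower. Over the 10 treated groups on average, 3 of the 17 member probe sets were higher and 1 was lower, beside 3.64% and 1.57% of all probe sets. The higher ones were both probe sets of Ccl2 and the third of Cx3cl1, and the lower one was Ccl5. In median over the 17, the average difference was 0.05 on the log2 scale, beside 0.01 over all probe sets. No member probe set was called in any single treated group. The share of all probe sets called there was 0.652%, 0.355%, 0.709% and 1.12% for banding at 6, 12, 16 and 30 weeks. It was 0.206% and 1.92% for infarction at 3 and 9 weeks, 0% and 0.0458% for the shunt at 3 and 8 weeks, and 0% for both angiotensin II and Ditpa. Nor was a member called with the times of a model averaged, where 5.26% of all probe sets were called for banding, 1.96% for infarction and 0.0458% for the shunt.

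**Figure D1:**
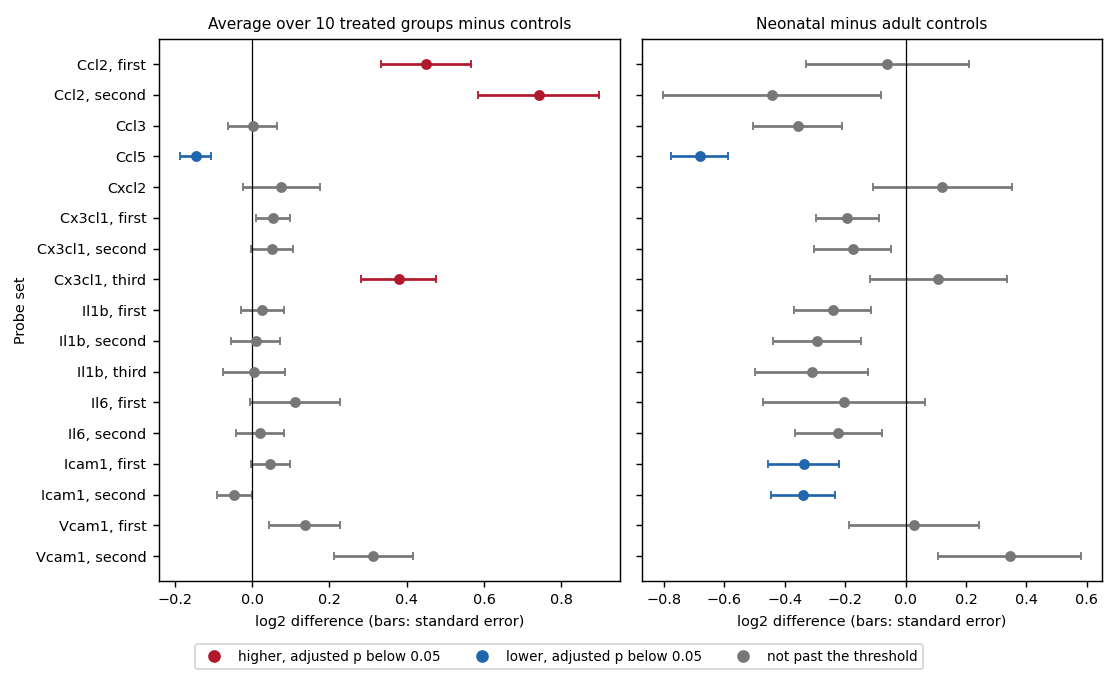
Log2 differences of the 17 member probe sets, with standard errors as bars, for the average over the 10 treated groups against their controls (left) and for neonatal against adult control hearts (right). On the left both Ccl2 probe sets and the third of Cx3cl1 are called higher (red) and Ccl5 lower (blue), grey points being not called, and on the right Ccl5 and both Icam1 probe sets are the ones called, all lower.

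Ccl2 (monocyte chemoattractant protein 1), the main attractant of monocytes, had the largest average difference of the members. Its second probe set averaged 0.74 ± 0.16 (SE) higher on the log2 scale, or 1.67-fold, and lay above the mean of its own controls on 22 of 26 treated arrays (limma, adjusted p = 0.00246). Its first probe set averaged 0.45 ± 0.12 higher, or 1.37-fold, and lay above on 23 of 26 arrays (limma, adjusted p = 0.0156). These averages rested in part on the hormone-treated arrays described below. Over the 8 operated groups, the second averaged 0.50 higher and the first 0.27 higher, and neither was called in the fit over all arrays (limma, adjusted p = 0.0593 and 0.205), where 6.75% of all probe sets were. With the vehicle, angiotensin II and Ditpa arrays left out of the fit, which removes the Ditpa pair from the estimate of spread, both were called at the same differences (limma, adjusted p = 0.000226 and 0.0162). The call of the first was lost without vehicle replicate 1 (limma, adjusted p = 0.0629) and without the angiotensin II arrays and the Ditpa array of replicate 2, an alternative added after the values were seen (0.22, limma, adjusted p = 0.0602).

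After infarction most Ccl2 values lay above those of shams. At 3 weeks the second probe set read 1231, 1051, 1282 and 1534 in infarcted ventricles and 831 and 773 in their shams. At 9 weeks it read 1479, 1475, 1683 and 866, against 724 and 517. All 8 infarction arrays thus lay above both of their own shams on this probe set. Of all probe sets, 8.48% at 3 weeks and 13.7% at 9 weeks had every infarction array above both shams. Over both times the difference of the second Ccl2 probe set was 0.89 ± 0.30 on the log2 scale, or 1.85-fold (limma, adjusted p = 0.145). The first probe set read 1358, 1160, 1289 and 1522 against 1027 and 986 at 3 weeks, and 1464, 1544, 886 and 1073 against 970 and 850 at 9 weeks. Its difference over both times was 0.41 ± 0.22 (limma, adjusted p = 0.532), and the groups overlapped at 9 weeks. On replicate 3 at 9 weeks the probe sets of Ccl2 disagreed, with the second at its highest for that group and the first at its lowest. With either Ditpa array left out of the shared fit, the infarction difference of the second probe set was called (limma, adjusted p = 0.00125 in both cases).

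In banded hearts the Ccl2 difference over the 4 times was 0.41 ± 0.24 on the second probe set and 0.26 ± 0.18 on the first (limma, adjusted p = 0.389 and 0.508). On the second the values at 16 weeks were 959 and 707 against 538 and 499, and at 30 weeks 1031, 1234, 781 and 745 against 633 and 528. At 6 weeks they were 934 and 825 against 781 and 779. All banded arrays of those 3 times lay above their shams on this probe set. That held for 20.4%, 26.8% and 11.4% of all probe sets at 6, 16 and 30 weeks. On the first Ccl2 probe set the banded arrays lay above their shams at 16 weeks (1091 and 1034 against 862 and 847). Its groups overlapped at 6 weeks (1106 and 961 against 1021 and 995) and at 30 weeks (1141, 1411, 1007 and 974 against 982 and 574). At 12 weeks the second read 751 and 972 against 880 and 706, and the groups overlapped. In shunt hearts it read 1101 and 752 against 539 and 646 at 3 weeks, and 1025 and 982 against 941 and 1118 at 8 weeks, where the groups overlapped. The shunt difference over both times was 0.30 ± 0.34.

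Of 14 listed markers of monocytes and macrophages 8 were measured, and 3 of the 8 were higher after infarction, 1 in banding and none in the shunt, beside 1.7% of all probe sets higher after infarction and 3.28% in banding. After infarction they were Lyz2 (lysozyme), C1qb (a complement subunit) and Ctss (cathepsin S), by 1.60, 0.81 and 0.85 on the log2 scale (limma, adjusted p = 0.00211, 0.0196 and 0.0176), and in banding Lyz2, by 1.28. The summed intensity of all 8 ran from 18986 to 23759 at 3 weeks after infarction against 13354 to 14536 in shams, and from 15847 to 47067 at 9 weeks against 14056 to 14659. Of the 9 fibroblast markers 6 were higher after infarction and 6 in banding. Among them were Postn (periostin, by 2.20 after infarction and 1.82 in banding) and Col3a1 (a collagen chain, by 1.00 and 0.55). The part of these cells in the Ccl2 values was not tested. The defining macrophage markers Cd68 and Adgre1 had no probe set named by the annotation.

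Cx3cl1 (fractalkine) is a chemokine with a membrane-bound form on endothelium. The third probe set averaged 0.38 ± 0.10 higher, or 1.30-fold, and lay above its own controls on 24 of 26 arrays (limma, adjusted p = 0.0148). At 3 weeks after infarction it read 574, 510, 459 and 527 against 396 and 404, and at 9 weeks 544, 576, 723 and 386 against 349 and 342. In shunt hearts it read 652 and 652 against 398 and 391 at 3 weeks and 829 and 742 against 668 and 707 at 8 weeks. Infarction and shunt arrays all lay above both of their shams. Of all probe sets, 8.48% and 13.7% did so at the 2 infarction times and 20.9% and 20.8% at the 2 shunt times. In banded hearts the groups overlapped at 6 and 12 weeks, where the sham arrays read 579 and 386, and 839 and 474, and the banded ones 503 and 498, and 367 and 872. They did not overlap at 16 weeks (577 and 488 against 394 and 436) or 30 weeks (550, 704, 681 and 858 against 484 and 528). At those times 26.8% and 11.4% of all probe sets lay above both shams on every banded array. The brighter probe sets of the gene did not follow. The first averaged 0.05 ± 0.04 higher and the second 0.05 ± 0.05 (limma, adjusted p = 0.634 and 0.731). Across the 26 treated arrays, the log2 ratios of the third probe set to own controls correlated with those of the first at r = 0.35 and with those of the second at r = 0.56, which all share arrays and controls. The non-member genes most like the third probe set were Psma1 (r = 0.88), Lrrc59 (0.86) and Rbbp7 (0.85). Without vehicle replicate 1 the call of the third probe set was lost (limma, adjusted p = 0.0793), as it was without the angiotensin II arrays and the Ditpa array of replicate 2 (difference 0.27, limma, adjusted p = 0.0819) and with the 5 models weighted equally (0.45, limma, adjusted p = 0.0661). Over the 8 operated groups alone it was called (0.33 ± 0.10, limma, adjusted p = 0.0426).

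Ccl5 (RANTES), an attractant of T cells and monocytes, was the member that fell. Its average difference was -0.15 ± 0.04 on the log2 scale, and it lay above its own controls on 5 of 26 arrays (limma, adjusted p = 0.0259). In banded hearts it read 823 and 800 against 942 and 860 at 6 weeks, 842 and 788 against 987 and 978 at 16 weeks, and 941, 845, 899 and 850 against 1095 and 990 at 30 weeks, with no overlap. At those times 15.7%, 24.1% and 9.15% of all probe sets lay below both shams on every banded array. At 12 weeks Ccl5 read 1000 and 929 against 894 and 1037, which overlapped. After infarction it read 1017, 851, 934 and 879 against 1031 and 933, and 980, 1051, 1022 and 852 against 952 and 1117, overlapping at both times. In shunt hearts it read 887 and 1187 against 1006 and 1088, and 1109 and 1236 against 1135 and 1240, also overlapping. Angiotensin II arrays read 1402 and 1350 and Ditpa arrays 1168 and 1308, all below the vehicle values of 1487 and 1708. Of all probe sets, 19.1% and 17.2% lay below both vehicle arrays on both arrays of these groups. The vehicle arrays were themselves high for Ccl5, as given below. The call was lost without the hormone groups (difference -0.11, limma, adjusted p = 0.151), with the 5 models weighted equally (-0.17, limma, adjusted p = 0.104) and on leaving out any of 5 single arrays, the highest of these adjusted p-values being 0.113 without vehicle replicate 2.

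**Figure D2:**
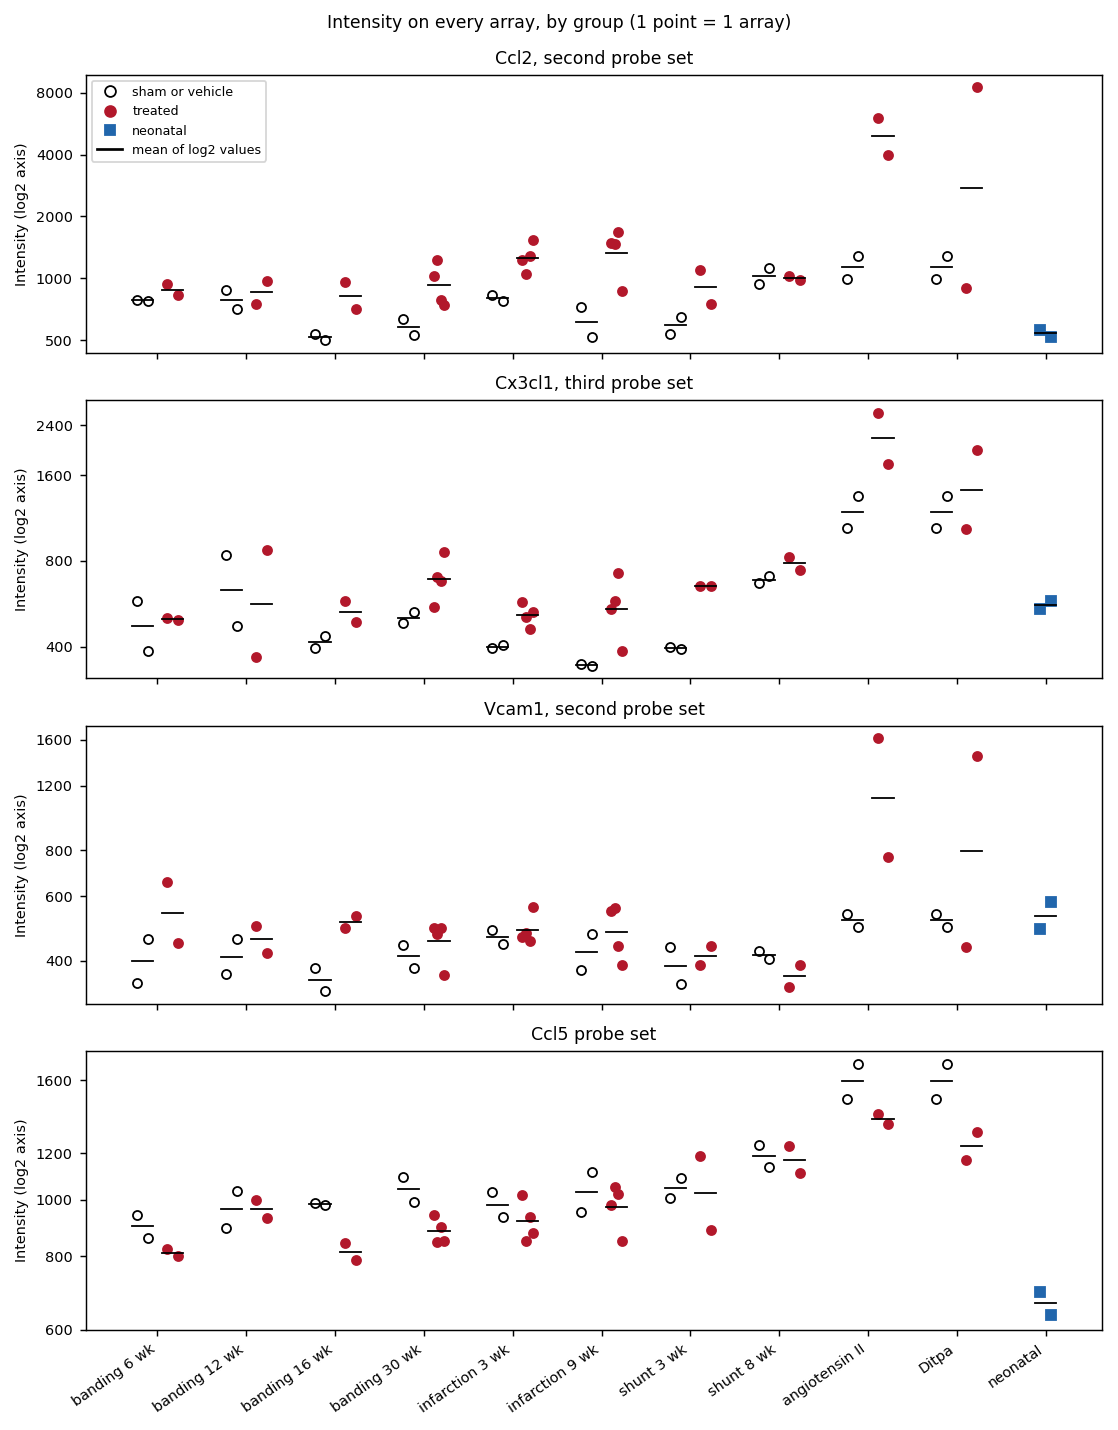
Intensity on every array (log2 axis) for the second Ccl2, the third Cx3cl1, the second Vcam1 and the Ccl5 probe set, with sham or vehicle arrays as open circles, treated arrays as filled circles, neonatal arrays as squares and a line at the mean of log2 values. The angiotensin II arrays and 1 of the 2 Ditpa arrays lie far above vehicle for Ccl2 (6055, 3990 and 8516 against 997 and 1290), and the operated groups lie closer to their shams.

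The other members showed no called difference in treated adults. Ccl3 (macrophage inflammatory protein 1 alpha) ran from 124 to 265 over all 46 arrays, with an average difference of 0.00 ± 0.06. Cxcl2, a neutrophil attractant, differed by 0.08 ± 0.10, with its highest values in banding at 30 weeks (798, 966, 569 and 407 against 509 and 514) and on 1 array of infarction at 9 weeks (806, 429, 395 and 282 against 398 and 362). Those groups overlapped their shams. Il1b differed by 0.03, 0.01 and 0.00 on its 3 probe sets, Il6 by 0.11 and 0.02 and Icam1 by 0.05 and -0.05, none of which was called (limma, lowest adjusted p = 0.706, for Icam1). Vcam1 differed by 0.14 ± 0.09 on the first probe set and 0.31 ± 0.10 on the second, where 18 of 26 arrays lay above their own controls (limma, adjusted p = 0.0713).

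Vcam1 lay above the mean of its own shams on 18 of 22 arrays of operated hearts on the first probe set and on 15 of 22 on the second, with no call. At 16 weeks of banding the second probe set read 491 and 530 against 382 and 330, and at 30 weeks 490, 474, 492 and 365 against 442 and 382, of which the last banded array lay below both shams. On the first probe set 1 array at 3 weeks after infarction read 1337, beside 830, 993 and 945 and shams of 880 and 944. At 9 weeks it read 926, 1003, 1048 and 983 against 895 and 784, with no overlap (0.24 ± 0.25, limma, adjusted p = 0.743). Also at 9 weeks after infarction Icam1 read 1816, 1761, 1790 and 1673 against 1390 and 1446 on its first probe set, with no overlap (0.31 ± 0.14, limma, adjusted p = 0.291). At that time 13.7% of all probe sets lay above both shams on every infarction array. The second Icam1 probe set read 1264, 1505, 1189 and 1571 against 1416 and 1400, so that the probe sets disagreed there. The 6 endothelial markers measured had a median average difference of -0.05, and none was called in any operated model.

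The study's methods name a rank sum test on log fold changes of the treated arrays with Bonferroni correction, and do not say what these were ranked against. An exact rank sum test was run here on the 26 treated and 18 control arrays, each as a ratio to the mean of its own controls, and passed no member probe set and 1.34% of all probe sets. The nearest were the second Ccl2, the third Cx3cl1 and the first Ccl2 probe set (exact, two-sided, Bonferroni p = 0.0633, 0.0731 and 0.112). An exact signed rank test of the 26 treated ratios against 0 passed both Ccl2 probe sets (Bonferroni p = 0.0357 and 0.0287). Both tests take the ratios as independent, which they were not. Arrays of a group share their control mean, the hormone groups share the vehicle arrays, and each control array is part of its own mean. These p-values are therefore given as a description.

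The hormone arrays held the widest values. Angiotensin II arrays read 3541 and 2458 on the first Ccl2 probe set, against 1065 and 1198 in vehicle, and 6055 and 3990 on the second, against 997 and 1290. Both arrays thus lay far above vehicle, by 1.39 ± 0.36 on the log2 scale (2.61-fold) and by 2.12 ± 0.49 (4.33-fold). Vcam1 read 2153 and 1281 against 999 and 1024 on the first probe set, and 1618 and 765 against 536 and 495 on the second, a difference of 1.11 ± 0.32 on the latter. The third Cx3cl1 probe set read 2652 and 1748 against 1041 and 1351. Il6 read 571 and 516 against 449 and 433 on its first probe set. Cxcl2 overlapped vehicle, with 514 and 462 against 432 and 637. The third Il1b probe set read 628 and 470 against 367 and 361, and Ccl3 265 and 252 against 185 and 209. Of the 17 member probe sets, 12 read higher on both angiotensin II arrays than on both vehicle arrays, beside 18.7% of all 8740.

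None of these differences passed the threshold in the fit over all arrays (limma, adjusted p = 0.407 and 0.196 for the first and the second Ccl2 probe set and 0.465 for the second of Vcam1). That fit shares its estimate of spread over all groups, including the Ditpa pair, which disagreed. With either Ditpa array left out, 3 member probe sets were called higher under angiotensin II, both of Ccl2 (limma, adjusted p = 0.000917 and 1.4e-05) and the second of Vcam1 (0.0442). With the 2 vehicle and 2 angiotensin II arrays alone in the fit, which was added after the values were seen, the adjusted p was 0.196 and 0.178 for Ccl2. In the full fit, 7 of the 17 member probe sets and 3.49% of all had an unadjusted p under 0.05 for angiotensin II.

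The Ditpa pair disagreed more on these genes than any other pair of replicates in the series. The second Ccl2 probe set read 894 on replicate 1 and 8516 on replicate 2, and the first read 971 and 4862. Il6 read 273 and 1451 on the first probe set and 350 and 678 on the second. Vcam1 read 752 and 1965 on the first and 437 and 1450 on the second. Replicate 1 was thus below or near vehicle and replicate 2 far above it, and on Il6 replicate 2 was the highest of all 46 arrays. Of the 17 member probe sets, 5 were more than 1 log2 unit higher on replicate 2 than on replicate 1, beside 0.538% of all probe sets. The largest log2 gap between replicates of the same group on a member probe set was 3.25 for Ditpa and 1.52 or less for every other group. Over all probe sets the Ditpa pair was not unusual, with 54 that differed by more than 1 log2 unit, where the other groups ranged from 22 to 285. The mean difference of Ditpa from vehicle, 1.28 ± 0.49 for the second Ccl2 probe set, therefore described neither array (limma, adjusted p = 0.710).

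**Figure D3:**
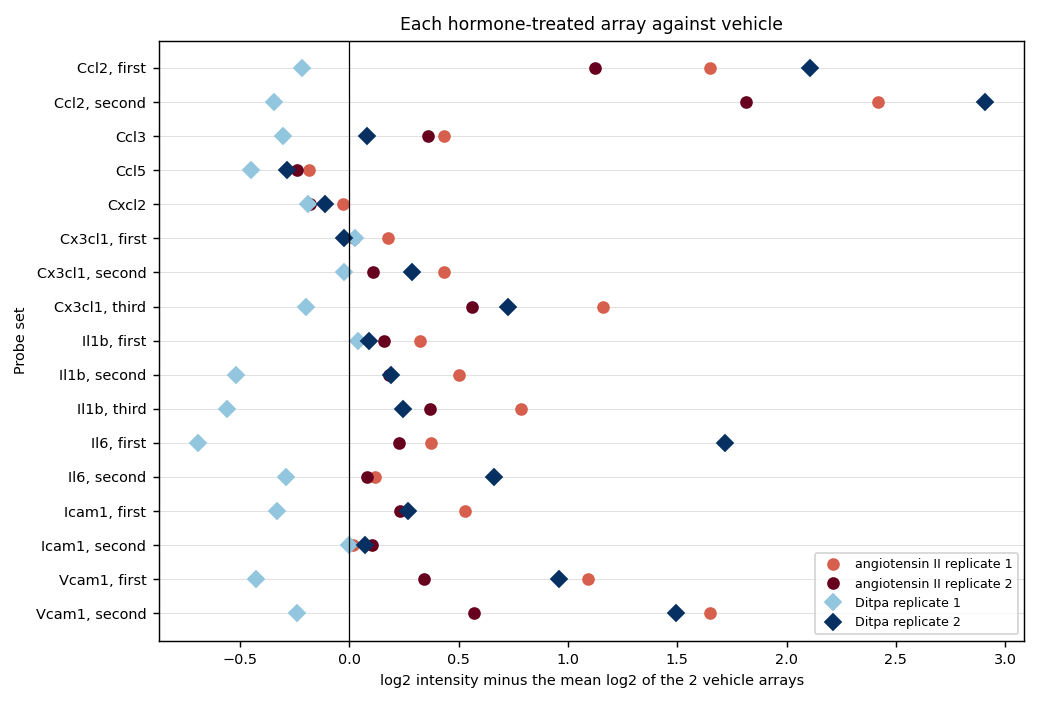
Log2 intensity of the 17 member probe sets on each angiotensin II array (circles) and each Ditpa array (diamonds), minus the mean of the 2 vehicle arrays. Each angiotensin II array lies above vehicle on 15 of the 17 probe sets, Ditpa replicate 2 on 14 and Ditpa replicate 1 on 2. Of all probe sets, 51.1% and 47.4% do so on angiotensin II replicates 1 and 2, 47.6% on Ditpa replicate 2 and 49.9% on Ditpa replicate 1. The 17 probe sets stand for 9 genes and share the vehicle arrays.

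A few other inflammatory genes, named here after their values were seen, divided the 6 arrays of the hormone experiment in the same way. Most others did not. Among the other pathway genes, those listed below, few lay more than 1 log2 unit above vehicle on Ditpa replicate 2. They were 1 of 19 chemokines and cytokines, 0 of 16 receptors, 1 of 11 adhesion genes and 1 of 10 NF-kappaB or JAK-STAT genes. Cxcl10, an interferon-induced chemokine, read 373 and 366 in vehicle, 5095 and 1859 under angiotensin II, and 375 and 6640 on the Ditpa arrays. Irf1, a transcription factor of the interferon response, read 2102 and 2456, then 4487 and 3724, then 1572 and 7670. Selp (P-selectin), on which leukocytes roll, read 1237 and 1087, then 3037 and 1382, then 908 and 2572. Only 8 probe sets of the array lay more than 1 log2 unit above the vehicle mean on both angiotensin II arrays and on Ditpa replicate 2 but not on replicate 1. They were those of Cxcl10, Gbp2, Mx1, Rsad2, Reg3g, both of Ccl2 and 1 without a gene name, a list set by the values themselves. The brighter probe set of Rsad2 did not meet this rule. It lay 0.71 and 0.20 log2 units above vehicle on the angiotensin II arrays and 0.37 above it on Ditpa replicate 2. Gbp2, Mx1 and Rsad2 are interferon-induced.

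On both angiotensin II arrays and on Ditpa replicate 2, leukocyte markers lay less far above vehicle than Ccl2 or lay below vehicle. Some were low on Ditpa replicate 1. None of the 8 monocyte and macrophage, 10 T cell and 2 neutrophil genes measured lay more than 1 log2 unit above vehicle on any of the 4 hormone arrays. The summed macrophage intensity was 20460 and 20466 in vehicle, 21247 to 26525 under angiotensin II, and 15702 and 19737 on the Ditpa arrays. The 2 neutrophil genes, S100a8 and S100a9, summed to between 1963 and 2146 in vehicle, between 2364 and 3264 under angiotensin II, and to 1003 and 2256 under Ditpa. S100a9 read 561 and 1612 on the Ditpa arrays, a gap of 1.52 log2 units, beside 1.39 for the first Vcam1 probe set. On Ditpa replicate 1 it differed from vehicle by -1.38 on the log2 scale, and Lyz2 by -0.91. The part of leukocytes in the chemokine values was not tested. Most cardiomyocyte probe sets, such as those of Actc1 and Tnni3, read close to the highest value of each array, so that no difference is drawn from them.

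The 2 vehicle arrays were themselves high among controls for some members. Ccl5 read 1487 and 1708 there, and between 860 and 1240 on the other 16 control arrays. The third Cx3cl1 probe set read 1041 and 1351, against 342 to 839, and the summed neutrophil intensity was above the 901 to 1234 of the other controls. No sham array of another model overlapped the vehicle arrays on these values, so levels are compared within the hormone experiment and not across models.

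In neonatal hearts 3 of the 17 member probe sets were lower than in adult controls and none was higher, beside 17% and 15.5% of all probe sets. The median difference over the 17 was -0.22 on the log2 scale, beside -0.07 over all. Ccl5 read 695 and 636 in neonates and had a median of 1019 in adult controls, with 860 as the lowest of the 18. It was lower by -0.68 ± 0.09 (limma, adjusted p = 1.09e-06). Icam1 read 1219 and 1261 on the first probe set, where adult controls ran from 1365 to 2027, and 1032 and 1161 on the second, where they ran from 1241 to 1579. Its differences were -0.34 ± 0.12 and -0.34 ± 0.11 (limma, adjusted p = 0.0271 and 0.0135). These 3 probe sets lay below all 18 adult controls on both neonatal arrays, which 10.3% of all probe sets did. Without neonatal replicate 1 the calls of both Icam1 probe sets were lost (limma, adjusted p = 0.215 and 0.264), and without replicate 2 that of the first was lost (0.123).

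The other members overlapped adult controls in neonates. Ccl2 read 888 and 918 on the first probe set, within the adult range of 574 to 1198, and 561 and 521 on the second, within 499 to 1290. Ccl3 read 131 and 152 against an adult range of 134 to 212 (-0.36 ± 0.15, limma, adjusted p = 0.0603). Il1b and Il6 differed by between -0.20 and -0.31 on their 5 probe sets, none called. Vcam1 went the other way on the second probe set, with 487 and 579 in neonates and 330 to 536 in adult controls (0.34 ± 0.24, limma, adjusted p = 0.283). Among leukocyte markers 3 of the 8 monocyte and macrophage genes (Lyz2, Ctss and Ptprc) and 2 of the 10 T cell genes (Cd3d and Cd4) were called lower in neonates, beside 17% of all probe sets, and the 2 neutrophil genes had a median difference of 0.09 with no call. Of the 9 fibroblast genes 5 were higher and 1 was lower. The macrophage sum was 10589 and 11705, beside 11250 to 20466 in adult controls. The part of these cells in the lower Ccl5 and Icam1 values was not tested.

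**Figure D4:**
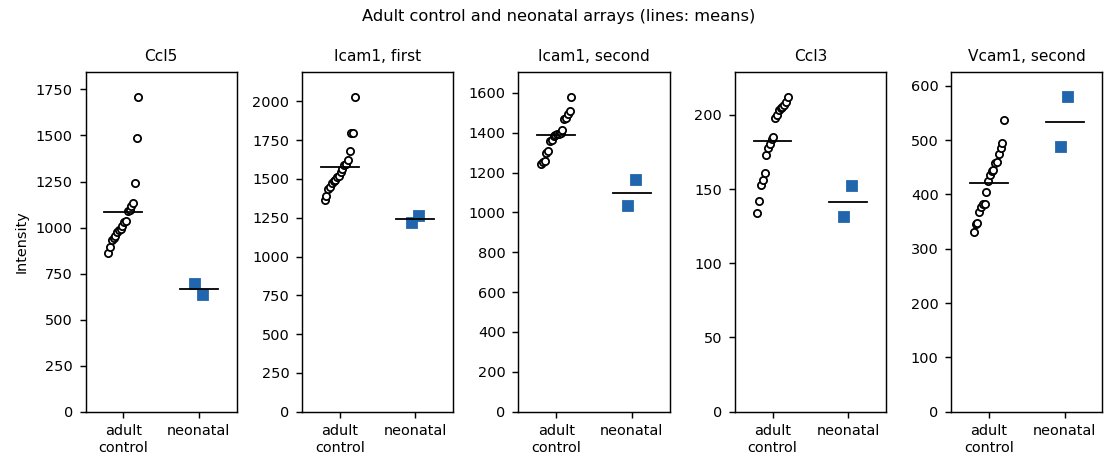
Intensity of 5 member probe sets on the 18 adult control arrays (open circles, sorted by value) and the 2 neonatal arrays (squares), with lines at the means and axes from 0. Both neonatal arrays lie below every adult control for Ccl5 and both Icam1 probe sets, and 1 of the 2 lies within the adult range for Ccl3 and for the second Vcam1 probe set.

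Whether the effects differed between models or times was tested directly. No member probe set was called for a difference between the 5 models (limma moderated F test, 0.275% of all probe sets called), where the lowest member values were those of the second Il1b and the second Ccl2 probe set (adjusted p = 0.573 and 0.715). With either Ditpa array left out, the Ditpa effect in that test rests on a single array, so no call is drawn from those fits. The first Il6 probe set, as an example, differed from vehicle by 1.72 log2 units on replicate 2 and by -0.69 on replicate 1. No member probe set was called between the banding times, between 9 and 3 weeks of infarction or between 8 and 3 weeks of shunt. For each of these, 0% of all probe sets were called. At an unadjusted p under 0.05, no member probe set and 623, 509 and 402 of all passed those 3 tests by limma.

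Of the other genes of these pathways, a list of 84 chemokines, cytokines, receptors, adhesion molecules and NF-kappaB or JAK-STAT components, 56 had a probe set. Over the treated groups on average 2 of the 56 were higher and none lower, near the 3.64% and 1.57% of all probe sets, with a median of 0.04. These were Itgb1, the beta 1 integrin chain that partners in the Vcam1 receptor (0.37 ± 0.09, limma, adjusted p = 0.00805), and Itgb7 (0.15 ± 0.04, limma, adjusted p = 0.0428). In banding the same 2 integrin chains were higher, by 0.49 and 0.26, and Il15, a T cell growth factor, was lower by -0.20 (limma, adjusted p = 0.0254, 0.0156 and 0.0461). None was called in infarction, the shunt or either hormone. In neonates 12 of the 56 were lower and 5 higher, beside 17% and 15.5% of all probe sets, so that these counts do not set the list apart. By size, the 10 largest held 7 that were lower: Il1a (-0.80), Il10 (-0.54) and Tnf (-0.53) of the cytokines, Ccr2 (-0.58), the receptor of Ccl2, Stat3 (-0.63), which carries Il6 signals, Nfkbia (-0.71), the inhibitor of NF-kappaB, and Ptgs2 (-0.64), an inducible prostaglandin synthase. The 3 that were higher were Itgb1 (0.92), Mif (0.88), a macrophage-acting cytokine, and Pecam1 (0.54), an endothelial adhesion molecule.

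The genes whose treated-to-control ratios were most like those of each member over the 26 treated arrays were listed by Pearson's r. For the first Ccl2 probe set they were Cxcl10 (r = 0.85), Irf1 (0.84) and Rsad2 (0.80), and for the first of Il6 they were Mx1 (0.69), Cxcl10 (0.68) and Oas1a (0.67). For the first of Vcam1 they were Cxcl10 (0.70), Selp (0.69) and Neurl3 (0.63). Over the 22 arrays of operated hearts alone, the r of Ccl2 with Cxcl10 was -0.01, that of Vcam1 with Cxcl10 was 0.11 and that of Il6 with Mx1 was 0.21. For the first Ccl2 probe set it was 0.34 with Irf1 and 0.21 with Rsad2, and for the second it was 0.52 with Rsad2 and 0.45 with Irf7. For Icam1 they were RT1-S3 (0.67), Slfn2 (0.67) and Cebpd (0.66), with r of 0.63, 0.51 and 0.51 over the operated hearts. For Cxcl2 they were Or10al7 (0.95), Mobp (0.94) and Sem1 (0.93), with r of 0.95, 0.94 and 0.93 over the operated hearts. Those most like Ccl3 were Zfx (0.70), Il1a (0.67) and Mmp8 (0.66), and those most like Ccl5 were Ahcy (0.65), Pomp (0.62) and Psmb3 (0.57). The first Cx3cl1 probe set was most like C9h2orf69 (0.75), Fkbp1a (0.73) and Dnajb5 (0.70). The first of Il1b was most like Uchl1 (0.80), Dgka (0.80) and Eif2ak2 (0.78). The arrays share controls within a group, and these values describe likeness over arrays only.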

How the data were processed

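Left ventricular RNA pools were hybridised to 46 Affymetrix rat arrays. The authors deposited model-based intensity values (dChip, perfect-match probes only, normalised on an invariant set of ranks), and the software version is not given in the sources used here. No detection calls were used, so whether a probe set lay above background is not known. The number of arrays limits the precision. Genes were named through the platform annotation: 7006 of 8740 probe sets had 1 symbol, 308 had several and 1426 had none listed.

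Values under 16 were set to 16 (122 values) and log2-transformed. A mean per group was fitted over all 46 arrays with limma 3.58.1 in R 4.3.3, with contrasts of each treated group against its own controls, their averages and neonatal against the mean of the 9 adult control groups. P-values were adjusted by Benjamini-Hochberg over all 8740 probe sets. All 17 member probe sets are reported, and other pathway genes are named where called, up to 10 in a comparison. The members and gene lists were chosen with earlier results of these data known, and so was the interferon list. The rank sum and signed rank tests were exact, which assumes independent values. The fit was tested on simulated data. No 2 arrays held identical values.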

Additional observations from a re-analysis of the deposited data

Results flagged for a closer look

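Among 51 groups of 4 arrays (17 member probe sets in 3 groups), 4 held an array whose gap to its nearest neighbour took up most of the group's range, by Dixon's criterion, which chance meets in about 1 of 20 groups. Vcam1 was flagged on both probe sets of the same array, banding at 30 weeks replicate 4. It read 722 on the first probe set (gap over range 0.889) and 365 on the second (0.873), below the other 3 arrays in both. Il1b read 541 on its first probe set on infarction at 9 weeks replicate 3 (0.933), where the other 3 read 769 to 789. Icam1 read 1579 on its second probe set on infarction at 3 weeks replicate 6 (0.831), above 1356 to 1391.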

How the results depend on the processing

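Over 60 alternative settings, 17867 of 17936 values of single member probe sets kept their side of the threshold, 54 gained a call and 15 lost it. No call reversed, but the direction of uncalled values could change. On Ditpa replicate 1 alone, the second Ccl2 probe set differed from vehicle by -0.34, beside 1.28 for the pair. Most values were uncalled in the main fit, so few could lose a call. Among the calls on average, that of Ccl5 was lost in 7 of 56 settings and that of the third Cx3cl1 in 3 of 55. That of the first Ccl2 was lost in 2 of 56 and that of the second in 0 of 55. The number of member probe sets called on average, 4 of 17, was 2 with the 5 models weighted equally and 2 without the angiotensin II arrays and Ditpa replicate 2, an alternative chosen after seeing the data. It ranged from 2 to 6 on leaving out each array, the lowest without vehicle replicate 1 and the highest without Ditpa replicate 1. With array weights, the counts rose from 0 to 4 for angiotensin II, to 1 for Ditpa and to 1 for infarction, and with quantile normalization to 1 for banding (Ccl5). Leaving out each array gave 0 to 3 for angiotensin II, 0 to 4 for Ditpa, 0 to 1 for infarction and 0 to 3 for the difference between models, with calls only where a Ditpa array was left out. For neonates the 3 called became 5 with only neonatal and control arrays in the fit, and 1 to 4 on leaving out each array. The rank sum test passed 0 member probe sets, the signed rank test 2, and the rank sum test 0 to 3 on leaving out each array, the most without Ditpa replicate 1. The cause was not tested.

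Replicate numbers were shared by vehicle, angiotensin II and Ditpa alone, and same-numbered arrays did not deviate together (r = -0.04, -0.06 and -0.08). With the replicate block, 0 member probe sets were called for angiotensin II and for Ditpa, and the adjusted p of the second Ccl2 probe set under angiotensin II was 0.0574; of all probe sets 2 were called for angiotensin II where there were 0. Over all 8740 probe sets, array weights gave 194 calls for angiotensin II and 152 for Ditpa where there were 0, 481 for infarction where there were 171, 270 for banding where there were 460 and 217 for the difference between models where there were 24. Leaving out each array gave 261 to 530 on average, 66 to 293 for infarction, 4 to 302 for the shunt where there were 4, 1551 to 3042 for neonates where there were 2846, 0 to 11 for angiotensin II, 0 to 22 for Ditpa and 18 to 116 for the difference between models. Equal weight of the 5 models gave 89 on average where there were 455. Quantile normalization moved the share of average calls that were higher from 69.9% to 54.2%, for banding from 62.4% to 45.2% for infarction from 87.1% to 73.3% and for the shunt from 100% of 4 to 83.3%. With 2 arrays in most groups, a lone array left after another was removed is assumed to vary like the other groups.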

Other observations

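Interferon-induced genes outside the pathway lists, chosen after their values were seen, gave these intensities in the hormone experiment. Gbp2, a guanylate-binding protein, read 171 and 327 in vehicle, 891 and 845 under angiotensin II, and 163 and 1491 on Ditpa replicates 1 and 2. Mx1, an antiviral GTPase, read 845 and 708, then 1799 and 2039, then 727 and 2921. Irf7, a transcription factor of the interferon response, read 2441 and 2747, then 4534 and 4108, then 1828 and 5669. All 3 were higher on both angiotensin II arrays and on Ditpa replicate 2 than on both vehicle arrays, and lower on Ditpa replicate 1 than the vehicle mean. The brighter probe set of Rsad2 differed less, with 1522 and 1971 in vehicle, then 2839 and 1984, then 1659 and 2241.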
